A study of Homo sapiens with 26 samples.

Results

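Splicing regulators and mRNA export factors were examined as 46 named genes in 4 groups: 12 SR proteins, 17 hnRNPs, 14 export factors and 3 CLK kinases. Probes for 43 of the 46 were found among the 17283 genes named on the platform, and all 43 were among the 12962 genes tested. SRSF4, NXF1 and THOC3 were not analysed here. The 43 comprised 11 SR proteins, 17 hnRNPs, 12 export factors and 3 CLK kinases.

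The cells were HCT116, a human colon adenocarcinoma line, labelled either p53 wild type (WT-labelled) or p53 knockout (KO-labelled). They were left untreated or were given 2 or 20 nM leptomycin B for 16 h, and total RNA of each sample was measured on its own 1-colour Illumina array. Leptomycin B inhibits XPO1, the export receptor for proteins with a leucine-rich export signal. The 26 arrays fell into 2 slide series. Series 1 held 3 untreated arrays of each label (replicates 4 to 6) and 3 arrays of each label at 20 nM, and series 2 held 4 untreated arrays of each label (replicates 7 to 10) and 3 of each label at 2 nM. Dose and slide series therefore cannot be told apart. The labels do not say whether replicates were separate cultures or how many knockout clones were used, so p-values reflect sample-to-sample spread that may be technical.

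SR proteins bind exonic sequences of pre-mRNA through RNA recognition motifs and recruit the splicing machinery through domains rich in arginine and serine. CLK kinases in the nucleus, and SRPK kinases mainly in the cytoplasm, phosphorylate those domains. The hnRNPs coat nascent transcripts, and many oppose SR proteins at splice sites or act in mRNA decay and translation. The TREX complex (the THO subunits, the helicase DDX39B and the adaptor ALYREF) loads onto capped, spliced mRNA and passes it to the receptor NXF1 with its partner NXT1, a route for bulk mRNA that does not use XPO1.

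The labels went against each other between the series for CDKN1A, a p53 target. Untreated WT-labelled arrays read 5212, 17672 and 17963 in series 1 against 1291 to 3463 on KO-labelled arrays, whereas in series 2 the WT-labelled arrays read 615 to 1016 and the KO-labelled 4031 to 4672. The p53 targets GDF15 and SESN1 also turned, at -3.47 and -2.51 log2 (untreated KO-labelled minus WT-labelled) in series 1 and 2.12 and 1.33 in series 2. MDM2, at -0.45 and 0.37, was not called. Each group is therefore named by its label, and any direction between labels rests on labels that CDKN1A, GDF15 and SESN1 do not bear out in both series. Untreated replicates 4 and 10 of both labels stood apart, with 2.61% to 10.6% of genes more than 2-fold from the other untreated arrays of their group. Replicates 5 and 6 lay close, with an SD of their log2 difference of 0.13 and 0.12 (WT- and KO-labelled). Against replicate 4 it was 0.52 to 0.62. Fits without replicates 4 and 10 therefore have a smaller estimated spread, which makes calls easier, so a call kept there is not a check of its strength. The epithelial genes KRT8, KRT18 and EPCAM averaged intensities of 6008, 14304 and 3786, while 7 of 13 colon epithelial markers, KRT20 and CDH17 among them, averaged 10 or less, near the bottom of the scale. Of 9 fibroblast markers 8 averaged 10 or less, as did 8 of 10 blood and endothelial markers, PTPRC (7.71) and PECAM1 (4.71) among them. The summed level of the latter list was 41.0 to 96.9 on untreated and 91.9 to 273 on treated arrays. That rise lay in HBA1 and CD14, and its part in the results was not tested. In bulk RNA, fewer cells of a type and less RNA per cell cannot be told apart.

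More of the splicing and export genes fell than rose in each of the 4 responses, a response being treated minus untreated arrays of 1 label and series. At 20 nM, 21 fell and 7 rose in WT-labelled cells, where 22.2% of all genes were called lower and 21.1% higher. In KO-labelled cells at 20 nM, 20 fell and 5 rose, against 18.8% and 18.3% of all genes. At 2 nM, 24 fell and 9 rose in WT-labelled cells (19.1% and 17.4% of all genes), and 26 fell and 6 rose in KO-labelled cells (21.8% and 21.6% of all genes). The median log2 change of the 43 genes was -0.27, -0.16, -0.33 and -0.47 in these 4 responses, and that of all genes was 0 in each. That 0 partly reflects processing: the deposited median was 10.2 on every array, and 49.7% of values were at or under 10, the lowest value used. Genes held at 10 cannot be called, so the all-gene median and shares are not those of genes as bright as most of the 43. Calls are limma tests with a Benjamini-Hochberg adjusted p under 0.05 over all genes. In series 1 treated and untreated arrays shared no slide, and with the slide as a random block 23 genes were called either way in WT-labelled cells, when 31.5% of all genes were, and 20 in KO-labelled cells, when 25% were. Without untreated replicates 4 and 10, at 20 nM 24 were lower and 10 higher in WT-labelled cells (28.7% and 27.2% of all genes) and 21 and 10 in KO-labelled cells (27.2% and 26.7%). At 2 nM 27 were lower and 9 higher (26.7% and 24.6%), and 29 and 8 in KO-labelled cells (27.7% and 27.6%).

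Changes past 2-fold covered 0 to 7 of the 43 genes each way per response. In WT-labelled cells at 20 nM they were SRSF3, SRSF7 and HNRNPD lower and CLK3 higher, 3 and 1 genes, when 8.15% and 6.52% of all genes passed 2-fold. In KO-labelled cells at 20 nM 1 gene, HNRNPD, was lower and 0 were higher (5.38% and 4.29% of all genes). At 2 nM in WT-labelled cells SRSF3, SRSF7 and HNRNPD were lower and CLK1 was higher (4.38% and 4.74%). In KO-labelled cells 7 were lower (SRSF3, SRSF7, SRSF10, TRA2B, HNRNPA1, HNRNPD and DDX39A) and 3 higher (NCBP2, CLK1 and CLK3), when 7.07% and 6.9% of all genes passed. Without untreated replicates 4 and 10 the lists at 20 nM were HNRNPD and DDX39A lower and THOC7 and CLK3 higher in WT-labelled cells (9.13% and 7.59% of all genes), where SRSF3 (-0.98) and SRSF7 (-0.94) were under 2-fold. In KO-labelled cells they were TRA2B and HNRNPD lower and THOC7 higher (7.63% and 5.93%), and THOC6 joined the genes lower there at 2 nM.

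Across all 4 responses, 17 genes were called lower each time, against 8.81% of all genes, and 3 were called higher each time, against 8.16%. The 17 were the SR proteins SRSF3, SRSF7, SRSF9 and TRA2B, the hnRNPs HNRNPA0, HNRNPA2B1, HNRNPD, HNRNPF, HNRNPH3, HNRNPR, HNRNPU, PTBP1 and PCBP1, and the export factors DDX39A, DDX39B, NCBP1 and DDX19A. The 3 were SRSF5, THOC2 and CLK3. SRSF6 was called in opposite directions in KO-labelled cells, higher at 20 nM and lower at 2 nM, as 3.32% of all genes were called both ways. SRSF11, HNRNPH1, ALYREF and THOC7 were called in none of the 4, as were 33.9% of all genes, but each was called in 1 or more responses without untreated replicates 4 and 10, when 24.1% of all genes were called in none. SRSF11 was then -0.69 ± 0.27 log2 in KO-labelled cells at 20 nM and 0.66 ± 0.24 and 0.69 ± 0.24 at 2 nM (limma adjusted p = 0.045, 0.0349 and 0.0256). Of the rest, 10 were called lower and 8 higher in 1 to 3 responses. The share of all genes with such a pattern is not given here, so these counts cannot be set against it. Without untreated replicates 4 and 10, 15 of the 17 and all 3 kept their calls in all 4 responses. SRSF9 and HNRNPA0 did not, both losing the 20 nM call in KO-labelled cells, and among the 15 the SRSF7 change there went from -0.55 to -0.14 and the PCBP1 change in WT-labelled cells at 20 nM from -0.27 to -0.15. SRSF10 and HNRNPC were called lower in all 4 only in that fit, which again had 17 such genes. The share of all genes lower in all 4 in that fit is not given here.

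**Figure D1:**
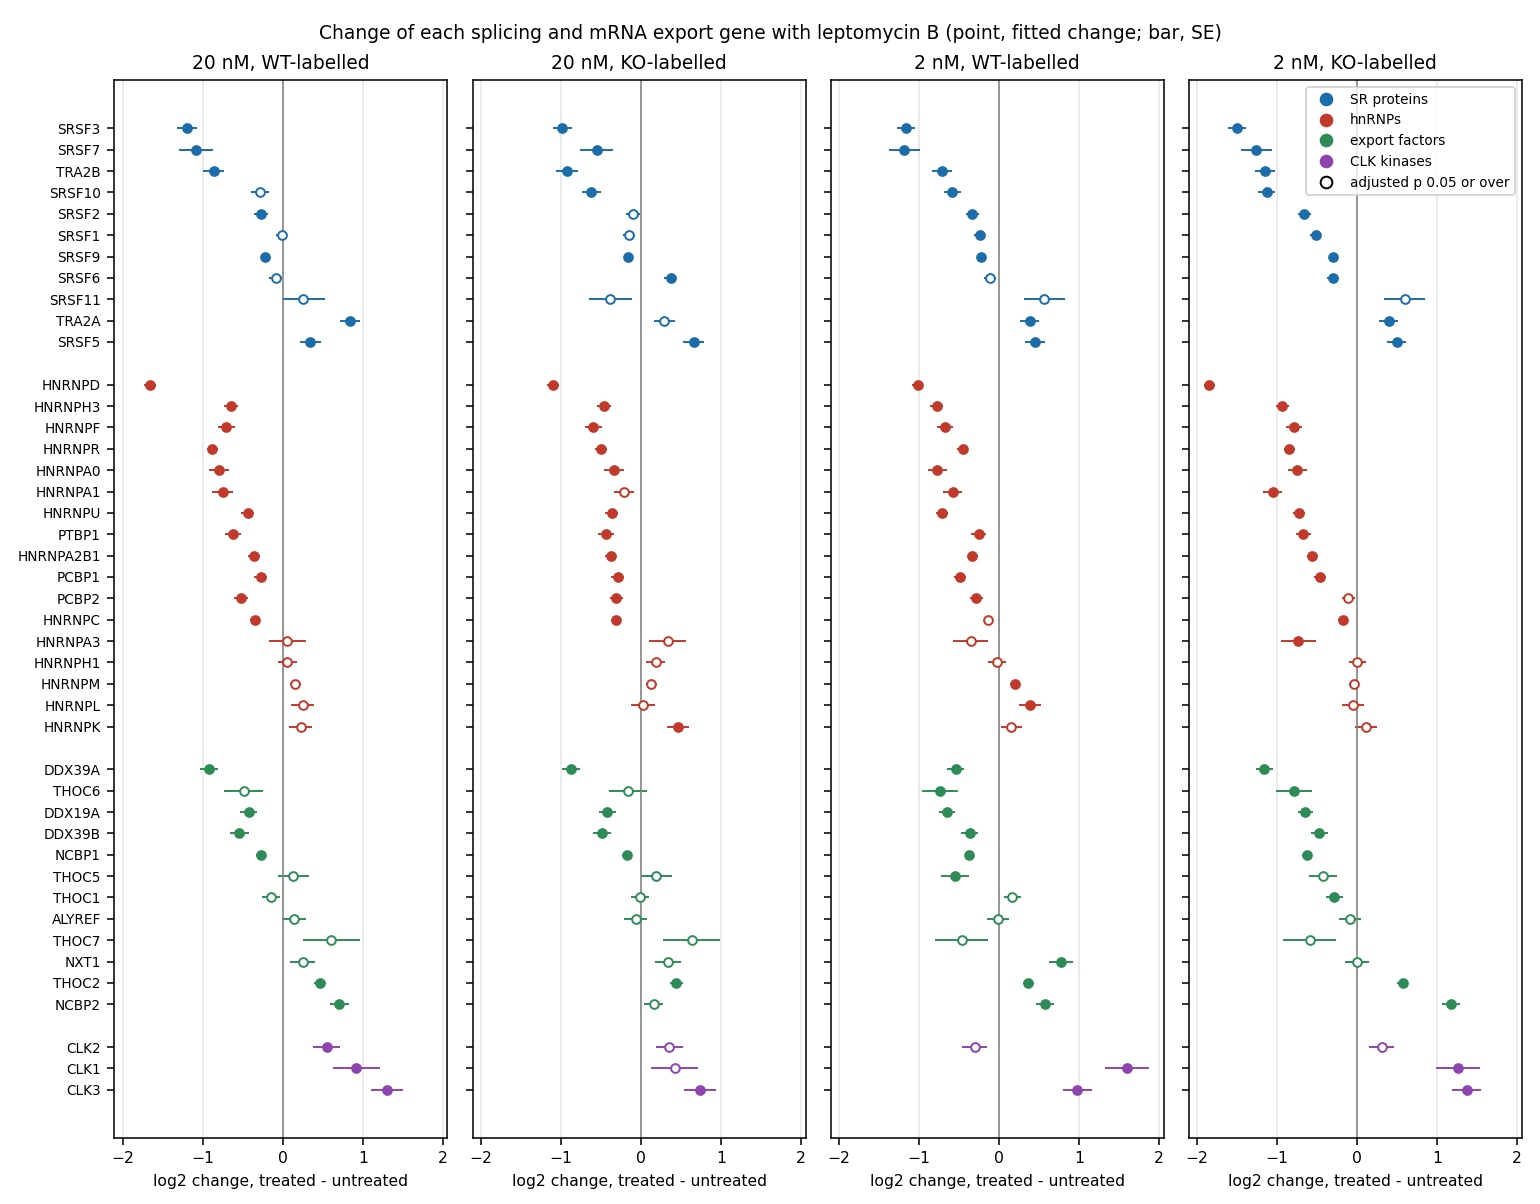
Fitted log2 change (treated minus untreated) of each of the 43 genes in the 4 responses, coloured by group, with bars for the SE and open points for an adjusted p of 0.05 or over. HNRNPD, SRSF3, TRA2B and DDX39A lie left of 0 with filled points in every panel, and CLK3 lies right of 0 in every panel.

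The sequence upstream of the start site is given for an SR protein, an hnRNP and a kinase with large changes. The 250 bases before the first listed start come from RefSeq on GRCh38.p14, read 5′ to 3′ on the gene's strand, with capitals marking motifs found on either strand.
SRSF3 chr6:36594112-36594361 (plus strand): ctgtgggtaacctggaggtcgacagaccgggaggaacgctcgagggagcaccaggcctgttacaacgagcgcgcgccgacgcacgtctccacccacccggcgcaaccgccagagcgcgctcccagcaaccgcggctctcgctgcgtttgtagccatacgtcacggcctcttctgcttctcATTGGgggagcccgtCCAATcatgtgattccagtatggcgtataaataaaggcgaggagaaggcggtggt
HNRNPD chr4:82373992-82374241 (minus strand): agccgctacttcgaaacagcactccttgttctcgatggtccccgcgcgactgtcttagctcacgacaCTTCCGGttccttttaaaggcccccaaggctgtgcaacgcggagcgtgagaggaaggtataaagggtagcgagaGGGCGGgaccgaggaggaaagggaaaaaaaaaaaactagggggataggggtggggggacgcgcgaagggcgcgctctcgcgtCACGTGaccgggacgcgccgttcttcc
CLK1 chr2:200864659-200864908 (minus strand): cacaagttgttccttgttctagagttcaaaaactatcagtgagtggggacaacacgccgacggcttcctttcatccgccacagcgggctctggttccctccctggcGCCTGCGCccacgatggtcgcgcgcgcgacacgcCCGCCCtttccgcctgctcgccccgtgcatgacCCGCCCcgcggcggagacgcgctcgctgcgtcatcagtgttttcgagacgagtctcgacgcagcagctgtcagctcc
The motifs searched were the CCAAT box (CCAAT), the GC box (GGGCGG), the E-box (CACGTG), an ETS site (CCGGAAG), an NRF1 site (GCGCANGC) and the cyclic AMP response element (TGACGTCA). SRSF3 held 2 CCAAT boxes, HNRNPD a GC box, an E-box and an ETS site, and CLK1 2 GC boxes and an NRF1 site. Promoters were listed for 38 of the 43 genes. Of their 54 promoters, 22.2% held the ETS site, 29.6% the NRF1 site and 40.7% a CCAAT box. These compare with 8.52%, 10.4% and 32.0% of 35114 promoters of 27303 genes, whether or not tested here. Among the 22 promoters of 16 of the genes called lower in all 4 responses, 11 held a CCAAT box, 5 the ETS site and 6 the NRF1 site. The GC box was in 61.1% of the 54 and 42.6% of all, the E-box in 9.26% and 6.35%, and the cyclic AMP response element in 3.7% and 1.65%. These shares describe letters in a window, and promoters of 1 gene can overlap, so that 1 site can count more than once. No comparison with promoters of the tested genes alone was made.

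SR proteins split by member. SRSF3, SRSF7, SRSF9 and TRA2B fell in all 4 responses, SRSF5 rose in all 4, and TRA2A rose in 3. SRSF3, the smallest SR protein and an adaptor for mRNA export, read 630, 425 and 386 on untreated WT-labelled arrays of series 1 and 209, 214 and 192 at 20 nM. In KO-labelled cells it went from 571, 479 and 443 to 251, 246 and 255. At 2 nM it read 359 to 374 in WT-labelled and 251 to 286 in KO-labelled cells, against 780 to 856 and 741 to 778 untreated. Treated arrays were below every untreated array in each response. The log2 changes were -1.20 ± 0.12 (SE), -0.98 ± 0.12, -1.15 ± 0.11 and -1.49 ± 0.11, with limma adjusted p from 2.37e-09 to 2.85e-06. The largest change, in KO-labelled cells at 2 nM, was 2.82-fold.

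SRSF7, a paralog of SRSF3 with a zinc knuckle, read 252 to 267 at 20 nM in WT-labelled cells against 475 to 676 untreated (log2 -1.09 ± 0.21, limma adjusted p = 0.000285). In KO-labelled cells it read 509, 218 and 211 untreated and 189 to 208 at 20 nM, a log2 change of -0.55 ± 0.21 (limma adjusted p = 0.0458). Without untreated KO-labelled replicate 4 alone it was -0.14 and was not called (adjusted p = 0.29), without replicates 4 and 10 of both labels it was -0.14 ± 0.05 and called (adjusted p = 0.0331), and leaving out any 1 of the 3 treated arrays also ended the call, at -0.60 to -0.53. At 2 nM SRSF7 fell by 1.18 ± 0.20 and 1.26 ± 0.20 on the log2 scale in WT- and KO-labelled cells. SRSF10, a splicing repressor when dephosphorylated, fell in 3 responses, by 0.58 to 1.13 log2, and was -0.28 ± 0.11 in WT-labelled cells at 20 nM (limma adjusted p = 0.0523), or -0.35 and called without untreated replicate 4.

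The tra2 paralogs, sequence-specific splicing activators, went opposite ways. TRA2B fell in all 4 responses (log2 -0.86 ± 0.13, -0.92 ± 0.13, -0.71 ± 0.12 and -1.15 ± 0.12). TRA2A rose in 3, by 0.84 ± 0.13 in WT-labelled cells at 20 nM and by 0.38 ± 0.12 and 0.40 ± 0.12 at 2 nM, and was 0.29 ± 0.13 in KO-labelled cells at 20 nM (limma adjusted p = 0.0831). On each array, TRA2A minus TRA2B in log2 intensity ran from -2.64 to -2.19 on untreated WT-labelled arrays of series 1 and from -0.82 to -0.72 at 20 nM. In KO-labelled cells of series 2 it ran from -1.69 to -1.36 untreated and from -0.17 to 0.17 at 2 nM. The ranges did not overlap in any response, and differences between probes here track change, not relative abundance. The TRA2A calls at 2 nM ended without treated replicate 1 (0.26) or untreated replicate 7 (0.30) in WT-labelled and without treated replicate 2 (0.31) in KO-labelled cells.

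SRSF5, an SR protein close in sequence to SRSF4 and SRSF6, rose by 0.34 ± 0.13, 0.66 ± 0.13, 0.45 ± 0.12 and 0.50 ± 0.12 log2. The remaining SR proteins changed less. SRSF1, the founding member of the family, fell at 2 nM by 0.24 ± 0.07 and 0.52 ± 0.07 log2 in WT- and KO-labelled cells, and at 20 nM was -0.01 and -0.15, not called. SRSF2 fell in 3 responses, by 0.27 to 0.66 log2. SRSF9 fell by 0.15 to 0.30 log2 in all 4. At 20 nM in WT-labelled cells the SRSF5 call ended when any of 5 of the 6 arrays was left out (0.29 to 0.37), and the SRSF2 call without untreated replicate 4 (-0.15). The SRSF9 call in KO-labelled cells at 20 nM ended without untreated replicate 4 (-0.12) or 5 (-0.15) or treated replicate 1 (-0.15).

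Array by array, the remaining SR proteins called in 1 direction throughout spread as follows. SRSF5 read 3149, 3549 and 3721 at 20 nM against 2612, 2836 and 2744 untreated in WT-labelled cells, and 3139, 3092 and 3284 against 2302, 1883 and 1862 in KO-labelled cells. In series 2 it read 4138, 3975 and 4443 at 2 nM against 3159, 3285, 3588 and 2355 in WT-labelled cells, and 4233, 4339 and 4346 against 2733, 3658, 3303 and 2637 in KO-labelled cells. Treated SRSF5 arrays lay above all untreated arrays in each of the 4 responses. SRSF9 read 6599, 6670 and 7070 at 20 nM against 8298, 8191 and 7302 untreated in WT-labelled cells, and 7075, 7282 and 7094 against 8355, 8051 and 7487 in KO-labelled cells. The 2 nM values were 6937, 6736 and 6678 against 8118, 8235, 7485 and 7962 in WT-labelled cells, and 6014, 5918 and 6025 against 7730, 7017, 7205 and 7445 in KO-labelled cells. Treated SRSF9 arrays lay below all untreated arrays in each of the 4 responses. TRA2B read 723, 719 and 586 at 20 nM against 1580, 1014 and 1145 untreated in WT-labelled cells, and 743, 712 and 663 against 1127, 1467 and 1440 in KO-labelled cells. For TRA2B at 2 nM the arrays read 998, 868 and 1010 against 1675, 1544, 1453 and 1611 in WT-labelled cells, and 665, 742 and 813 against 1617, 1589, 1751 and 1576 in KO-labelled cells. Treated TRA2B arrays lay below all untreated arrays in each of the 4 responses. SRSF7 read 267, 263 and 252 at 20 nM against 676, 475 and 528 untreated in WT-labelled cells, and 189, 208 and 190 against 509, 218 and 211 in KO-labelled cells. In series 2 it read 266, 262 and 261 at 2 nM against 573, 599, 583 and 630 in WT-labelled cells, and 303, 283 and 314 against 737, 714, 736 and 678 in KO-labelled cells. Treated SRSF7 arrays lay below all untreated arrays in each of the 4 responses.

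Most hnRNPs fell, 12, 11, 11 and 12 of 17 in the 4 responses, when 22.2%, 18.8%, 19.1% and 21.8% of all genes were called lower. Only 0, 1, 2 and 0 rose, against 21.1%, 18.3%, 17.4% and 21.6% of all genes. HNRNPD, which binds AU-rich elements and takes part in the decay of the mRNAs that hold them, had the largest fall of any of the 43 genes in 3 of the 4 responses. Untreated WT-labelled arrays of series 1 read 6687, 5306 and 5296, and the 20 nM arrays 1684, 1896 and 1884. KO-labelled arrays read 6964, 6996 and 6415 untreated and 3193, 3105 and 3231 at 20 nM. At 2 nM they read 3740 to 3959 in WT-labelled and 1999 to 2144 in KO-labelled cells, against 7277 to 8527 and 7090 to 7643 untreated. Every treated array lay below every untreated array. The log2 changes were -1.66 ± 0.07, -1.10 ± 0.07, -1.02 ± 0.07 and -1.84 ± 0.07, or 3.15-, 2.14-, 2.02- and 3.59-fold lower, with limma adjusted p from 1.42e-13 to 1.41e-09.

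Other hnRNPs fell by less. HNRNPR, a relative of the mRNA-binding protein SYNCRIP, fell by 0.88 ± 0.07 and 0.50 ± 0.07 log2 at 20 nM and by 0.45 ± 0.07 and 0.85 ± 0.07 at 2 nM (WT-labelled first). HNRNPH3, HNRNPF and PTBP1, the polypyrimidine tract binding protein, fell by 0.25 to 0.93 log2 over the 4 responses. HNRNPF was dim throughout, at 22.1 to 55.2. HNRNPA2B1, an abundant core hnRNP, fell by 0.33 to 0.56 log2 from untreated readings of 8780 to 11932, and PCBP1, which binds poly(C), by 0.27 to 0.49. HNRNPU, a nuclear scaffold protein, read 12.1 to 18.2 untreated and under 10, the lowest value used, on every treated array. With values under 10 set to 10 it was 1.35-, 1.29-, 1.63- and 1.65-fold lower in the 4 responses. All its readings lay near or under the array median of 10.2, and at a floor of 20 it had no change. Its place among the genes lower in all 4 responses therefore rests on the floor used. The PTBP1 call in WT-labelled cells at 2 nM ended when untreated replicate 7, 8 or 9 or any treated array was left out (-0.27 to -0.22), and the PCBP1 call there at 20 nM without untreated replicate 4 (-0.15).

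HNRNPA1, a splicing silencer and shuttling protein, fell in 3 responses, by 0.75 ± 0.13, 0.58 ± 0.12 and 1.05 ± 0.12 log2, and was -0.21 ± 0.13 in KO-labelled cells at 20 nM (limma adjusted p = 0.231). HNRNPA0 fell in all 4, but in KO-labelled cells at 20 nM its change of -0.33 ± 0.12 became -0.10 without untreated replicate 4 (adjusted p = 0.312), and the call also ended without treated replicate 1 (-0.33) or 2 (-0.29). HNRNPC fell in 3 responses by 0.17 to 0.35 log2. Its call in KO-labelled cells at 2 nM ended without untreated replicate 10 (-0.13) or treated replicate 1 (-0.15) or 2 (-0.17). PCBP2 fell in 3 responses by 0.28 to 0.52 log2, with the 2 nM call in WT-labelled cells ending without treated replicate 3 (-0.23). Few hnRNPs rose: HNRNPK by 0.46 ± 0.14 log2 in KO-labelled cells at 20 nM, and HNRNPL and HNRNPM by 0.39 ± 0.14 and 0.20 ± 0.06 in WT-labelled cells at 2 nM. The HNRNPL call ended when untreated replicate 8, 9 or 10 or treated replicate 1 or 2 was left out (0.35 to 0.38), and that of HNRNPM without treated replicate 2 or 3 (0.19 each). HNRNPH1 lay within 0.19 log2 of 0 in all 4 responses, and without untreated replicates 4 and 10 it was 0.26 ± 0.07 in KO-labelled cells at 20 nM (limma adjusted p = 0.00504).

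The other hnRNPs called lower throughout are given by array. HNRNPA0 read 954, 1053 and 1049 at 20 nM against 1946, 1690 and 1658 untreated in WT-labelled cells, and 1106, 1039 and 1176 against 1908, 1261 and 1120 in KO-labelled cells. The 2 nM values were 1327, 1303 and 1250 against 2216, 2193, 2132 and 2267 in WT-labelled cells, and 1127, 1046 and 1074 against 1864, 1684, 1765 and 1959 in KO-labelled cells. The HNRNPA0 ranges overlapped in KO-labelled cells at 20 nM, and not in the other responses. HNRNPA2B1 read 8176, 7489 and 6639 at 20 nM against 10178, 9524 and 8780 untreated in WT-labelled cells, and 7253, 7608 and 7742 against 9549, 9990 and 9755 in KO-labelled cells. For HNRNPA2B1 at 2 nM the arrays read 8041, 9543 and 9520 against 11253, 11533, 10651 and 11932 in WT-labelled cells, and 7144, 6802 and 6952 against 10224, 9605, 10105 and 11120 in KO-labelled cells. Treated HNRNPA2B1 arrays lay below all untreated arrays in each of the 4 responses. HNRNPF read 25.02, 24.7 and 22.1 at 20 nM against 48.3, 34.4 and 35.7 untreated in WT-labelled cells, and 23.4, 24.4 and 24.8 against 39.8, 33.96 and 36.2 in KO-labelled cells. In series 2 it read 27.8, 28.1 and 32.4 at 2 nM against 44.7, 43.1, 51.1 and 48.3 in WT-labelled cells, and 32.9, 28.6 and 29.2 against 48.9, 55.2, 49.3 and 55.1 in KO-labelled cells. Treated HNRNPF arrays lay below all untreated arrays in each of the 4 responses. HNRNPH3 read 181, 159 and 152 at 20 nM against 268, 240 and 263 untreated in WT-labelled cells, and 205, 232 and 216 against 324, 306 and 273 in KO-labelled cells. The 2 nM values were 252, 230 and 253 against 396, 440, 391.6 and 451 in WT-labelled cells, and 189, 167 and 207 against 371, 370, 366 and 324 in KO-labelled cells. Treated HNRNPH3 arrays lay below all untreated arrays in each of the 4 responses.

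HNRNPR read 1819, 1940 and 1951 at 20 nM against 3930, 3371 and 3245 untreated in WT-labelled cells, and 2813, 3007 and 2974 against 4164, 4334 and 3930 in KO-labelled cells. For HNRNPR at 2 nM the arrays read 2949, 2991 and 3115 against 4189, 4476, 3900 and 3969 in WT-labelled cells, and 2061, 1875 and 2039 against 3535, 3459, 3366 and 3981 in KO-labelled cells. Treated HNRNPR arrays lay below all untreated arrays in each of the 4 responses. PTBP1 read 5597, 4988 and 5545 at 20 nM against 7428, 8658 and 8805 untreated in WT-labelled cells, and 7039, 6778 and 7254 against 8997, 9506 and 9912 in KO-labelled cells. In series 2 it read 8448, 8942 and 9005 at 2 nM against 11259, 10968, 10920 and 8919 in WT-labelled cells, and 6809, 7244 and 6879 against 12034, 11366, 12382 and 8977 in KO-labelled cells. The PTBP1 ranges overlapped in WT-labelled cells at 2 nM, and not in the other responses. PCBP1 read 3324, 3235 and 3656 at 20 nM against 4846, 3813 and 3751 untreated in WT-labelled cells, and 3157, 3246 and 3391 against 4379, 3788 and 3822 in KO-labelled cells. The 2 nM values were 3654, 3504 and 3488 against 4793, 4843, 5077 and 5235 in WT-labelled cells, and 3398, 3428 and 3568 against 5100, 4460, 4525 and 5037 in KO-labelled cells. Treated PCBP1 arrays lay below all untreated arrays in each of the 4 responses. HNRNPU, before its lowest values were set to 10, read 7.50, 4.37 and 0.56 at 20 nM against 16.3, 12.1 and 12.6 untreated in WT-labelled cells, and 6.57, 7.23 and 7.72 against 12.3, 12.6 and 13.9 in KO-labelled cells. For HNRNPU at 2 nM the arrays read 8.98, 6.71 and 9.28 against 18.2, 15.1, 16.7 and 15.5 in WT-labelled cells, and 5.13, 4.97 and 5.01 against 17.9, 16.7, 15.9 and 15.7 in KO-labelled cells. Treated HNRNPU arrays lay below all untreated arrays in each of the 4 responses.

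**Figure D2:**
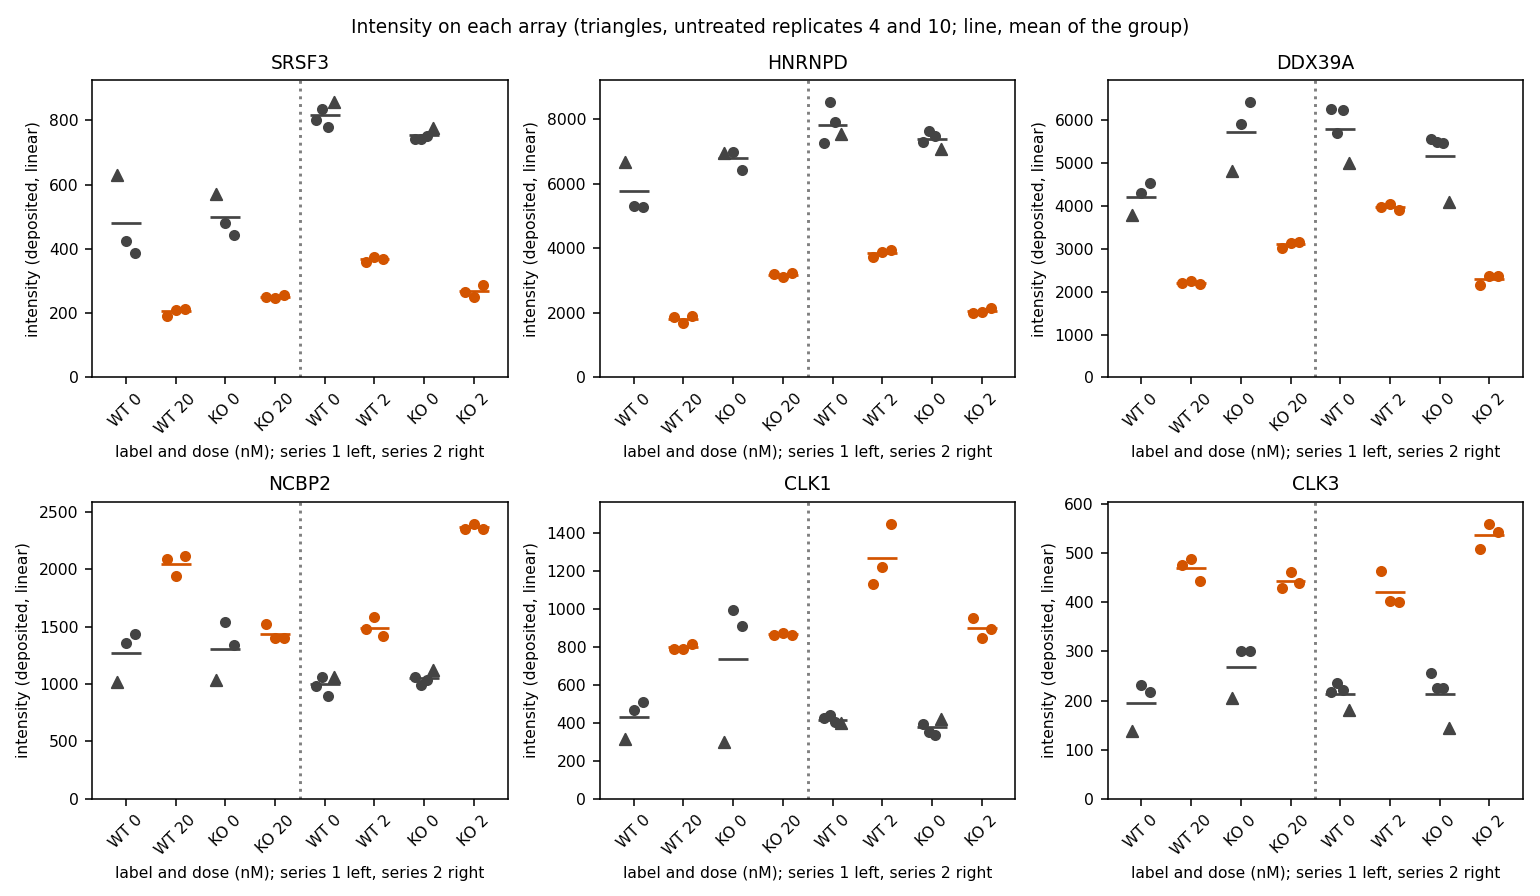
Deposited linear intensity of 6 genes on each of the 26 arrays, untreated in dark grey and treated in orange, series 1 left and series 2 right of the dotted line, with a bar for the group mean and triangles for untreated replicates 4 and 10. For HNRNPD, SRSF3 and DDX39A every treated array lies below all untreated arrays of its label and series, and for CLK3 every treated array lies above them.

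Among export factors, the 3 helicases fell in all 4 responses. DDX39A, a paralog of the TREX helicase DDX39B, read 2241, 2192 and 2201 in WT-labelled cells at 20 nM against 3781, 4312 and 4548 untreated. KO-labelled arrays at 20 nM read 3026, 3130 and 3164 against 4818, 5922 and 6425. At 2 nM it read 3906 to 4041 and 2160 to 2362, against 5011 to 6262 and 4093 to 5573 untreated. Treated and untreated arrays did not overlap in any response. DDX39A fell by 0.93 ± 0.11, 0.87 ± 0.11, 0.54 ± 0.11 and 1.16 ± 0.11 log2 (limma adjusted p from 3.09e-08 to 0.000405). DDX39B fell by 0.54 ± 0.12, 0.48 ± 0.12, 0.37 ± 0.11 and 0.47 ± 0.11, and DDX19A, a helicase of the pore's cytoplasmic face, by 0.42 to 0.65. The DDX39B call in WT-labelled cells at 2 nM ended without treated replicate 3 (-0.33).

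The cap-binding subunits moved in opposite directions. NCBP2, which contacts the cap, read 1943, 2116 and 2092 in WT-labelled cells at 20 nM against 1016, 1355 and 1437 untreated. In KO-labelled cells at 2 nM it read 2350, 2398 and 2355 against 989 to 1121. Neither pair of ranges overlapped, and NCBP2 rose by 0.71 ± 0.12 and 1.17 ± 0.11 log2 in these responses (limma adjusted p = 7.81e-05 and 6.45e-08). It rose by 0.58 ± 0.11 in WT-labelled cells at 2 nM and was 0.16 ± 0.12 in KO-labelled cells at 20 nM (limma adjusted p = 0.348). NCBP1, its larger partner, fell in all 4 responses, by 0.17 to 0.63 log2. Its call in KO-labelled cells at 20 nM ended without treated replicate 1 or 3 or untreated replicate 5 or 6 (-0.17 to -0.12). NCBP2 minus NCBP1 on each array went from 0.35 to 0.58 log2 on untreated KO-labelled arrays of series 2 to 2.21 to 2.31 at 2 nM.

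THO subunits did not share a direction. THOC2, the scaffold of the THO complex, rose by 0.37 to 0.57 log2 in all 4 responses, from 69.0 to 104 on untreated to 95.9 to 146 on treated arrays. THOC6 fell at 2 nM by 0.74 ± 0.22 and 0.79 ± 0.22 log2 and was not called at 20 nM, where it was -0.49 in WT-labelled cells and, without untreated replicates 4 and 10, -0.74 ± 0.10 and called (limma adjusted p = 1.21e-05). THOC5 fell in WT-labelled cells at 2 nM, by 0.55 ± 0.18, and THOC1 in KO-labelled cells at 2 nM, by 0.28 ± 0.10. In WT-labelled cells the 2 nM calls of THOC6 and THOC5 ended without treated replicate 3 (-0.68 and -0.51), that of THOC5 also without untreated replicate 7 or 9 (-0.50 each). The THOC1 call ended when any of 5 arrays was left out (-0.29 to -0.21). Without untreated KO-labelled replicate 10, THOC5 in KO-labelled cells at 2 nM was -0.66 and called. THOC7 turned on replicate 4: untreated arrays of series 1 read 2878, 837 and 860 in WT-labelled and 2505, 961 and 992 in KO-labelled cells, against 1859 to 2123 at 20 nM. Untreated THOC7 in series 2 read 2777 to 3390 and 2744 to 3436.5 (WT-labelled first), nearer to replicate 4 than to replicates 5 and 6. With all arrays the THOC7 change at 20 nM was 0.61 ± 0.35 and 0.63 ± 0.35 log2 and was not called. Without replicates 4 and 10 it was 1.19 ± 0.08 and 1.09 ± 0.08 (limma adjusted p = 2.52e-09 and 9.58e-09), resting on untreated replicates 5 and 6 alone. At 2 nM THOC7 was -0.47 ± 0.33 and -0.59 ± 0.33 with all arrays.

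ALYREF, the TREX adaptor, was not called in any response, with log2 changes from -0.09 to 0.14 and SE of 0.14 to 0.15. Without untreated replicates 4 and 10 it was -0.24 ± 0.10 in KO-labelled cells at 20 nM and called (limma adjusted p = 0.0491). NXT1, the partner of the NXF1 receptor, rose in WT-labelled cells at 2 nM, from 643 to 773 untreated to 1208 to 1293 treated (0.78 ± 0.15 log2, limma adjusted p = 0.000363). It was 0.00 ± 0.15 in KO-labelled cells at 2 nM, and 0.25 ± 0.16 and 0.34 ± 0.16 at 20 nM, not called. Untreated KO-labelled arrays of series 1 read 606, 1069 and 1011, with replicate 4 the lowest. Without untreated replicates 4 and 10 NXT1 was 0.21 ± 0.04 and 0.08 ± 0.04 at 20 nM in WT- and KO-labelled cells and -0.14 ± 0.04 in KO-labelled cells at 2 nM, the first and last of these called (limma adjusted p = 0.000321 and 0.00372).

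DDX39B read 1970, 1953 and 1984 at 20 nM against 2279, 3470 and 2973 untreated in WT-labelled cells, and 2509, 2466 and 2461 against 3027, 3784 and 3627 in KO-labelled cells. In series 2 it read 2691, 2805 and 2540 at 2 nM against 3679, 3774, 3362 and 3029 in WT-labelled cells, and 2137, 2079 and 2222 against 2614, 3223, 3045 and 3039 in KO-labelled cells. Treated DDX39B arrays lay below all untreated arrays in each of the 4 responses. NCBP1 read 424, 386 and 428 at 20 nM against 497, 501 and 494 untreated in WT-labelled cells, and 428, 499 and 460 against 487, 555 and 521 in KO-labelled cells. The 2 nM values were 566, 575 and 556 against 757, 772, 717 and 692 in WT-labelled cells, and 477, 520 and 473 against 722, 775, 785 and 749 in KO-labelled cells. The NCBP1 ranges overlapped in KO-labelled cells at 20 nM, and not in the other responses. DDX19A read 71.7, 84.2 and 77.1 at 20 nM against 111, 101 and 100 untreated in WT-labelled cells, and 83.4, 89.2 and 80.9 against 116, 110 and 114 in KO-labelled cells. For DDX19A at 2 nM the arrays read 97.0, 82.1 and 68.3 against 133, 138, 122 and 120 in WT-labelled cells, and 70.9, 82.0 and 86.6 against 125, 142, 119 and 114 in KO-labelled cells. Treated DDX19A arrays lay below all untreated arrays in each of the 4 responses. THOC2 read 134, 146 and 120 at 20 nM against 86.7, 101 and 103 untreated in WT-labelled cells, and 134, 130 and 138 against 88.8, 104 and 102 in KO-labelled cells. In series 2 it read 112, 101 and 95.9 at 2 nM against 78.2, 75.7, 83.2 and 82.0 in WT-labelled cells, and 110, 109 and 112 against 79.0, 75.3, 74.4 and 69.0 in KO-labelled cells. Treated THOC2 arrays lay above all untreated arrays in each of the 4 responses.

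The CLK kinases rose wherever they were called, in 3, 1, 2 and 2 of 3 cases, when 21.1%, 18.3%, 17.4% and 21.6% of all genes were called higher. CLK3 read 488, 444 and 476 in WT-labelled cells at 20 nM against 137, 231 and 218 untreated, and 429 to 461 against 205 to 301 in KO-labelled cells. At 2 nM it read 401 to 463 and 509 to 560, against 182 to 236 and 143 to 256 untreated. The ranges did not overlap in any response. CLK3 rose by 1.30 ± 0.20, 0.74 ± 0.20, 0.98 ± 0.18 and 1.37 ± 0.18 log2 (limma adjusted p from 5.41e-06 to 0.00562).

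CLK1, which phosphorylates SR proteins and whose own transcript is alternatively spliced, read 1132, 1221 and 1450 at 2 nM in WT-labelled cells against 397 to 441 untreated. In KO-labelled cells it read 848 to 954 at 2 nM against 337 to 421. Treated arrays were above all untreated arrays in both, and the rises were 1.60 ± 0.27 and 1.26 ± 0.27 log2, or 3.03- and 2.40-fold (limma adjusted p = 9.81e-05 and 0.000739). At 20 nM CLK1 rose by 0.92 ± 0.29 in WT-labelled cells (limma adjusted p = 0.0137). Without WT-labelled replicate 4 alone that change was 0.71, not called (adjusted p = 0.0772), and without replicates 4 and 10 it was 0.71 ± 0.09 and called (adjusted p = 4e-06). Untreated KO-labelled CLK1 in series 1 read 299, 997 and 908, with replicate 4 lowest and nearest to the 337 to 421 of series 2. The 20 nM arrays of that label read 861 to 876. The change there was 0.42 ± 0.29 (limma adjusted p = 0.294), and -0.14 ± 0.09 without replicates 4 and 10 (adjusted p = 0.227). CLK2, at 29.0 to 74.5, rose in WT-labelled cells at 20 nM, by 0.55 ± 0.17, and was not called in the other 3 responses. It was called in KO-labelled cells at 20 nM without untreated replicate 4 (0.62) and lower in WT-labelled cells at 2 nM without untreated replicate 10 (-0.42).

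Set side by side, the hnRNPs had the lowest group median at 20 nM and in KO-labelled cells at 2 nM, as a description without a test. Their median log2 changes were -0.44, -0.31, -0.35 and -0.67, those of SR proteins -0.22, -0.15, -0.24 and -0.52, and those of export factors -0.01, -0.04, -0.37 and -0.45. Export factors had 4 called lower and 2 higher at 20 nM in WT-labelled cells and 4 lower and 1 higher in KO-labelled cells. At 2 nM 6 were lower in each label, with 3 and 2 higher. SR proteins had 5, 5, 7 and 8 of 11 called lower and 2 called higher in each response. Of all genes, 22.2%, 18.8%, 19.1% and 21.8% were called lower and 21.1%, 18.3%, 17.4% and 21.6% higher. Without untreated replicates 4 and 10, the hnRNPs had 12, 10, 12 and 12 lower, the SR proteins 6, 6, 7 and 8, and the export factors 6, 5, 7 and 9. Called higher were 1, 3, 1 and 0 hnRNPs, 2, 2, 3 and 3 SR proteins, and 4, 3, 3 and 2 export factors. Of all genes, 28.7%, 27.2%, 26.7% and 27.7% were then lower and 27.2%, 26.7%, 24.6% and 27.6% higher.

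**Figure D3:**
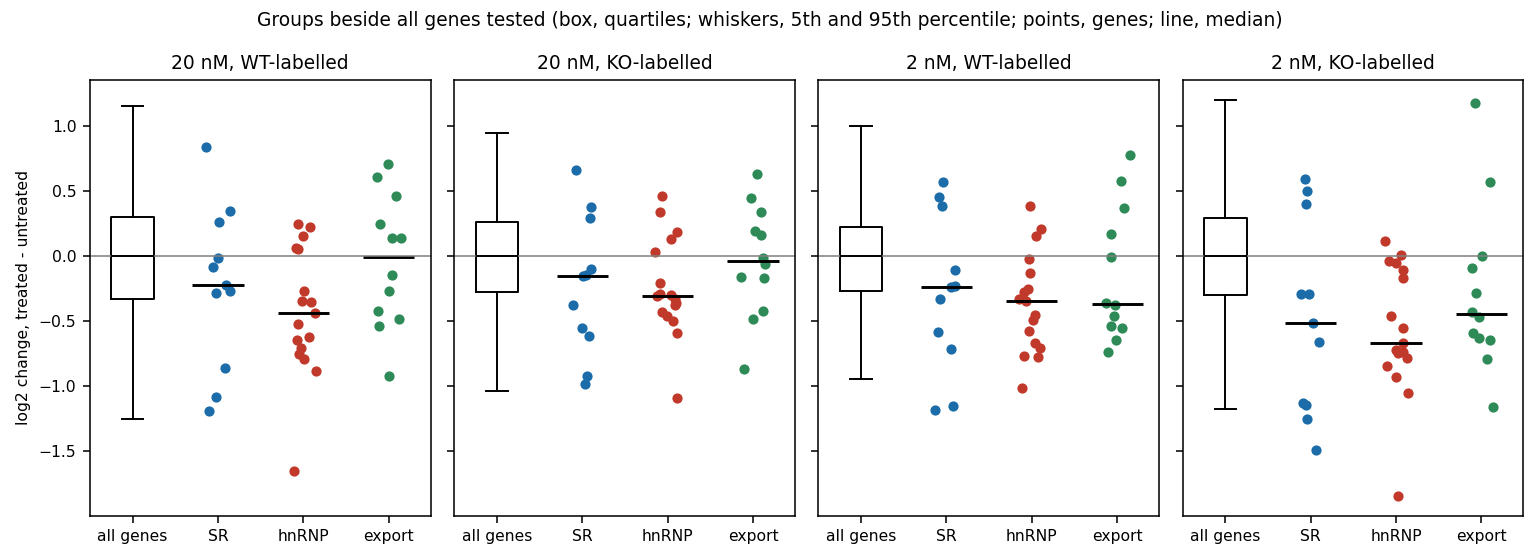
Log2 change of each gene in the SR, hnRNP and export groups beside all genes tested (box, quartiles; whiskers, 5th and 95th percentile). In WT-labelled cells at 20 nM the hnRNP median is -0.44 and the export median -0.01, and the quartiles of all genes are -0.33 and 0.30.

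On each array the median of a group's log2 values, relative to the untreated arrays of its series, was also taken. For hnRNPs it ran from -0.47 to -0.39 in WT-labelled and -0.36 to -0.31 in KO-labelled cells at 20 nM. At 2 nM it ran from -0.38 to -0.30 and from -0.65 to -0.58. Untreated hnRNP values ran from -0.08 to 0.10 over both series, so that treated and untreated arrays did not overlap. For SR proteins they did not overlap in any response either, at -0.39 to -0.25 against -0.16 to 0.09 in WT-labelled and -0.16 to -0.12 against 0.07 to 0.11 in KO-labelled cells at 20 nM. At 2 nM SR proteins ran from -0.25 to -0.18 against -0.02 to 0.09, and from -0.49 to -0.42 against -0.04 to 0.02. Export factors were also apart at 2 nM, at -0.38 to -0.28 against -0.09 to 0.08 and -0.51 to -0.43 against -0.20 to 0.04. For export factors at 20 nM treated and untreated arrays overlapped, at -0.23 to -0.17 against -0.21 to -0.01 in WT-labelled cells and 0.07 to 0.15 against -0.04 to 0.20 in KO-labelled cells.

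**Figure D4:**
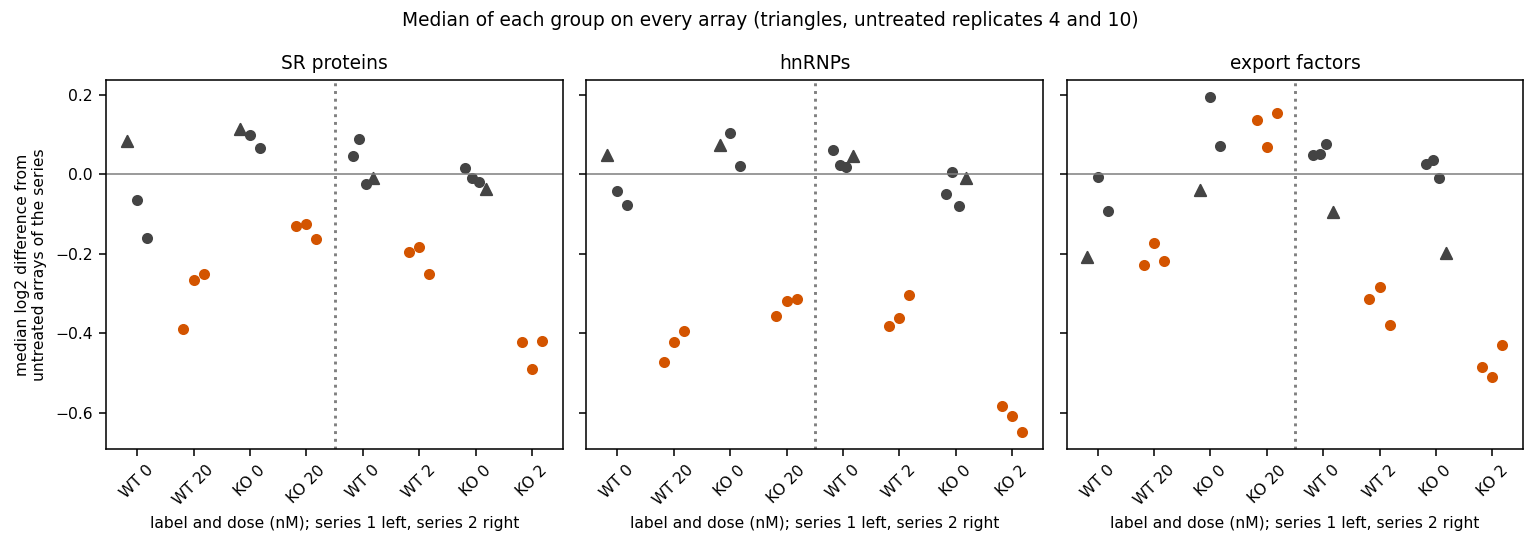
Median log2 difference from the untreated arrays of the same series, over the genes of a group, on each array (untreated in dark grey, treated in orange, triangles for untreated replicates 4 and 10). The hnRNP values of all treated arrays, -0.65 to -0.30, lie below those of all untreated arrays, SR proteins do not overlap within a label and series, and export factors overlap at 20 nM.

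Several genes were measured by more than 1 probe, and the brightest stood for the gene. The second CLK1 probe rose by 1.65 ± 0.32 log2 in WT-labelled cells at 20 nM and by 1.58 ± 0.30 and 1.64 ± 0.30 at 2 nM, and was 0.78 ± 0.32 in KO-labelled cells at 20 nM (limma adjusted p = 0.064). The second CLK3 probe rose in all 4 responses, by 0.90 to 1.84. For HNRNPA1 the probes differed at 20 nM in WT-labelled cells, where the second gave -0.12 ± 0.13 (adjusted p = 0.576), and both fell at 2 nM. For HNRNPM the second probe, at a mean of 42.7, rose by 1.01 ± 0.20 and 0.96 ± 0.20 at 20 nM, where the brighter gave 0.16 and 0.13 and was not called. The second probes of DDX39A and DDX39B averaged 22.7 and 19.4, and only that of DDX39B in KO-labelled cells at 2 nM was called (-0.39 ± 0.13). A probe does not separate splice forms that share its target.

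Between untreated cells of the 2 labels, the genes called in both series, SRSF2 and HNRNPR, had opposite signs. In series 1, 11 were higher and 2 lower in KO-labelled cells, when 7.07% and 7.79% of all genes were. ALYREF was 0.71 ± 0.15 log2 higher, TRA2A 0.60 ± 0.13 and NXT1 0.55 ± 0.16 higher, and SRSF7 lower, at -0.95 ± 0.21. With the slide as a fixed block limma called 0 of the 43 (5 at an unadjusted p under 0.05), when 3.79% of all genes were called, and with only the slides that held both labels also 0 (7 unadjusted), against 4.5%. Both settings rest on replicate 4 as the sole untreated KO-labelled array on a shared slide, assumed to vary like the other groups. With a block for the replicate number, which assumes that same-numbered untreated arrays pair, 18 were called, when 30.8% of all genes were. In series 2, 4 were lower in KO-labelled cells (PCBP2 -0.37 ± 0.07, SRSF2 -0.29 ± 0.08, HNRNPR -0.21 ± 0.06 and HNRNPC -0.19 ± 0.05), and 0 higher, when 4.79% and 4.36% of all genes were, and 9 were called with the replicate block, when 21.5% of all genes were. With the slide as a random block 0 were called by limma (1 unadjusted), when 1.03% of all genes were. In series 2 each label had a slide of its own, so label and slide cannot be told apart. SRSF2 and HNRNPR were higher in KO-labelled cells in series 1, by 0.30 ± 0.09 and 0.24 ± 0.07. Without replicates 4 and 10, 23 and 17 were called, when 39.5% and 28.1% of all genes were.

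The size of the response to leptomycin B differed between the labels for 3 genes at 20 nM and 8 at 2 nM. At 20 nM the 3 were higher in KO-labelled cells and 0 lower, when 4.92% and 3.93% of all genes were. At 2 nM 1 was higher and 7 lower, when 5.94% and 5.99% were. At 20 nM the response of HNRNPD was 0.56 ± 0.10 log2 less negative in KO-labelled cells (limma adjusted p = 0.00159), and at 2 nM it was more negative there by a fitted -0.83 ± 0.10 (limma adjusted p = 6.83e-06). HNRNPR did the same, at 0.38 ± 0.10 and -0.39 ± 0.09. SRSF6 differed at 20 nM, by 0.46 ± 0.11. At 2 nM the response of KO-labelled cells was more negative for DDX39A (-0.62 ± 0.15), SRSF10 (-0.55 ± 0.15), PTBP1 (-0.42 ± 0.13) and NCBP1 (-0.25 ± 0.08). It was more positive for NCBP2 (0.60 ± 0.16), and lower by a fitted -0.78 ± 0.21 for NXT1. At 20 nM limma called 0 with only the slides that held both labels (3 unadjusted), when 3.96% of all genes were called. That setting holds 1 array of each treated group and 1 untreated KO-labelled array, assumed to vary like the other groups. Without replicates 4 and 10 the counts were 16 and 17, when 33.6% and 30.5% of all genes were called.

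**Figure D5:**
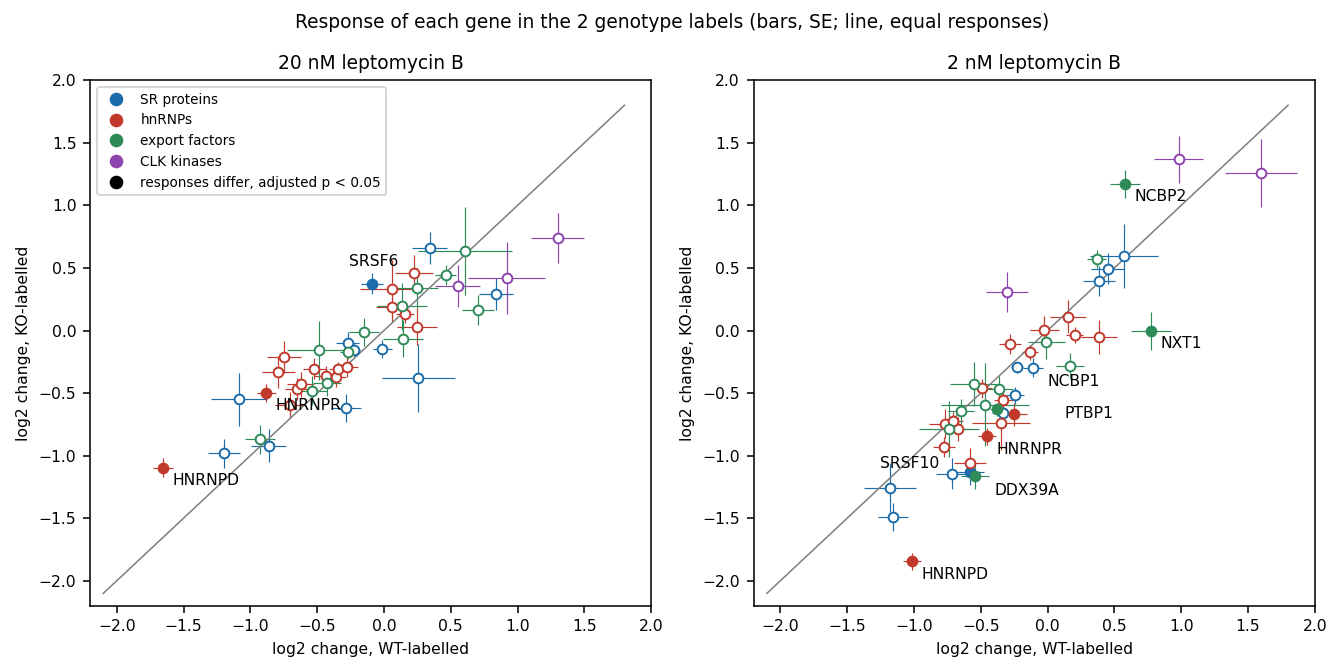
Log2 change of each gene in KO-labelled (vertical) against WT-labelled cells (horizontal) at 20 nM (left) and 2 nM (right), with SE bars and filled points where the 2 responses differed. HNRNPD lies above the line of equal responses at 20 nM (-1.66 against -1.10) and below it at 2 nM (-1.02 against -1.84).

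Between the doses, which are also the slide series, the response of WT-labelled cells differed for 3 genes, 1 higher and 2 lower at 20 nM, when 9.57% and 9.94% of all genes were. That of KO-labelled cells differed for 13, 12 higher and 1 lower, when 10.5% and 10.9% were. In WT-labelled cells HNRNPD (-0.64 ± 0.10) and HNRNPR (-0.43 ± 0.10) were more negative at 20 nM, and CLK2 was higher (0.86 ± 0.23). In KO-labelled cells the log2 response of 12 was higher at 20 nM than at 2 nM, among them HNRNPA1 (0.85 ± 0.18), HNRNPD (0.75 ± 0.10) and SRSF2 (0.56 ± 0.12). SRSF6 was among them (0.67 ± 0.11), with a response of 0.38 at 20 nM and -0.30 at 2 nM. HNRNPA3 differed by 1.07 ± 0.32, at 0.33 ± 0.23 at 20 nM, not called, and -0.74 ± 0.22 at 2 nM. NCBP2 was less positive at 20 nM (-1.01 ± 0.16). Because CDKN1A opposes the labels between series, the 20 nM response was also set against the 2 nM response of the other label. Then 1 gene, SRSF6, was called for KO-labelled cells at 20 nM, when 6.39% of all genes were, and HNRNPD was -0.08 (limma adjusted p = 0.741). For WT-labelled cells at 20 nM 4 were called (SRSF1, SRSF10, PCBP2 and NCBP1), when 8.61% of all genes were, and HNRNPD was 0.19 (adjusted p = 0.27).

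Genes of neighbouring pathways were counted in the same fit, where 21.1%, 18.3%, 17.4% and 21.6% of all genes rose and 22.2%, 18.8%, 19.1% and 21.8% fell. Of 45 core spliceosome genes, 16, 13, 13 and 14 rose and 10, 9, 10 and 15 fell in the 4 responses. Of 16 other SR and hnRNP genes, 2, 1, 3 and 4 rose and 6, 8, 7 and 8 fell. RBMX, also called hnRNP G, fell by 0.89 to 1.51 log2. Among 15 other export adaptors, 4, 4, 4 and 5 fell and 1, 2, 3 and 4 rose. CHTOP, a TREX subunit, had log2 changes of -1.95 to -0.99, all called, and SRRT, which bridges the cap-binding complex to RNA processing, rose by 1.01 to 1.41. Of 4 SR protein kinases other than CLK1 to CLK3, SRPK1 fell by 0.56 to 1.06 log2 in all 4 responses.

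XPO1, the target of leptomycin B, rose by 0.47 ± 0.15 log2 in WT-labelled cells at 20 nM and by 0.59 ± 0.14 and 0.54 ± 0.14 at 2 nM, and was 0.32 ± 0.15 in KO-labelled cells at 20 nM (limma adjusted p = 0.112). Of 8 genes linked to RNA export through XPO1, 2, 1, 2 and 2 rose and 2, 1, 3 and 3 fell. PHAX, the adaptor that brings capped small nuclear RNA to XPO1, rose by 0.53 to 1.11 log2 in all 4 responses.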

How the data were processed

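Total RNA of HCT116 cells was measured on 26 1-colour Illumina arrays, per the labels. The deposited table holds a linear intensity per probe, made by the authors with BeadStudio, per the submitters' processing notes. For its version, background correction and normalization, nothing is given in the sources used here. Since 20.4% of deposited values were below 0, background had been subtracted, and no detection p was used here. The median was 10.195 on every array and the 95th percentile ran from 1364 to 1393, so arrays had been brought to nearly 1 distribution. The number of arrays sets the precision.

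Of 22177 probes, 21101 had 1 gene symbol, 1076 had none and none had several, and 20986 matched the reference gene table by Entrez identifier. The brightest probe stood for a gene, a choice among several for 2345 of the genes tested. Intensities under 10 were set to 10 and log2 taken, which understates changes of dim genes (49.7% of values were 10 or less). No further normalization was applied. Genes above the array's 40th percentile on at least 3 arrays, 12962 in all, were fitted with limma 3.58.1 (lmFit, eBayes) in R 4.3.3 with 8 groups of label, dose and slide series and 18 residual degrees of freedom, and statmod 1.5.0 for random blocks. Adjusted p-values are Benjamini-Hochberg values across the 12962 genes. The 4 responses share no arrays. Comparisons of labels and of doses are differences within that fit. Fold changes for HNRNPU use the value 10.

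Slides and series come from identifiers in the labels. Same-numbered untreated arrays of the 2 labels gave correlations of 0.33 to 0.81 over genes, and treated ones -0.04 to 0.10. Values were taken relative to the group mean, so an odd replicate 4 or 10 also moves the other arrays of its group. Only replicates 4 (0.76) and 10 (0.81) are therefore shown to deviate together. Pairing by replicate number was used as an assumption, in untreated comparisons only. The deleted gene itself was not analysed here. On data simulated for the 20 nM response of WT-labelled cells with 12962 genes, 71 of 100 genes changed by 1 log2 and 27 of 100 changed by 0.5 were recovered, with 2 false calls. No other genes were changed, those changed were drawn from brighter genes, and noise was independent without slide effects. In the data 21.1% of genes were called higher and 22.2% lower in that response, so these rates do not carry over to it. The members and all gene lists were chosen with earlier results of these data known. Named genes are, per group and response, up to 4 called members each way, all CLK kinases, those called 1 way in all 4 responses, NXF1, ALYREF, DDX39B, XPO1 and CDKN1A as checks, up to 4 each way between labels or responses, and up to 2 each way of each related list. Other names were chosen after their values were seen. Alternatives covered the floor, scaling, filter, probe choice, slide and replicate blocks, array weights and left-out arrays. The setting with each probe on its own and the setting without HNRNPU were added after seeing the data.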

Additional observations from a re-analysis of the deposited data

Results flagged for a closer look

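In 9 of 86 groups of 4 untreated arrays of series 2, 1 array lay far from the other 3, with its gap to the nearest, as a share of the whole range, above Dixon's 95% critical value. Chance gives this in about 1 in 20 groups. That share of the range is given in parentheses. The array was replicate 10 in 8 of the 9. In KO-labelled cells replicate 10 was lowest for NXT1 (0.967), DDX39A (0.937), THOC6 (0.917), HNRNPH3 (0.896) and THOC5 (0.865), where THOC6 read 187 against 375 to 399. In WT-labelled cells it was lowest for CLK2 (0.877), PTBP1 (0.869) and ALYREF (0.862). Replicate 7 of WT-labelled cells was highest for HNRNPL (0.831), at 408 against 320 to 333.

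The response differed between labels by a test of the difference for 11 gene and dose combinations, as KO-labelled minus WT-labelled log2 response. At 20 nM these were SRSF6 (0.46), HNRNPD (0.56) and HNRNPR (0.38). At 2 nM they were HNRNPD (-0.83), NXT1 (-0.78), DDX39A (-0.62), NCBP2 (0.60), SRSF10 (-0.55), PTBP1 (-0.42), HNRNPR (-0.39) and NCBP1 (-0.25). The label differences in response of HNRNPD and HNRNPR changed sign between the doses, which are also the slide series. The label difference of CDKN1A that changed sign between the series was one of untreated level, a different measure. A link between them was not tested.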

How the results depend on the processing

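The count of genes called in each of the 4 responses stayed within 1.5 times at every setting, and ran from 27 to 29, 21 to 25, 27 to 33 and 29 to 33 (20 nM WT- and KO-labelled, then 2 nM) when 1 array was left out. Of 118 calls of single genes, 86 held at every setting and 32 were lost at 1 or more. Comparisons of labels and doses depended on the setting. The share of all genes called is not given here for many of these settings. A shift in a count alone therefore does not set these genes apart from all genes. For untreated labels in series 1, 7.07% of all genes were called higher and 7.79% lower with all arrays. Either way, 39.5% were called without untreated arrays 4 and 10 and 3.79% with the slide as a fixed block, so that share moved the same way as the count. For untreated labels in series 1 (13 called) the count was 7 at a floor of 5, 2 with the slide as a random block, 6 with the series fitted separately, 30 with array weights, 23 without untreated arrays 4 and 10, 0 with the slide as a fixed block or with only slides holding both labels, and 4 to 17 with 1 array left out. In series 2 (4 called) it was 1 at a floor of 5, 2 at a pseudocount of 16 or a 60th percentile filter, 0 with the random block, 7 fitted separately, 18 with weights, 17 without arrays 4 and 10, 9 with the replicate block, and 1 to 6 with 1 array left out. For the 20 nM response between labels (3 called) it was 1 with the random block, the fixed block or separate fits, 0 with both-label slides, 19 with weights, 16 without arrays 4 and 10, 7 with the replicate block, whose numbers do not pair treated arrays, and 2 to 9 with 1 array left out. At 2 nM (8 called) it was 18 with weights, 17 without arrays 4 and 10, 12 with the replicate block, and 5 to 11 with 1 array left out. Between doses it was 18 with weights or without arrays 4 and 10 and 3 to 10 with 1 array left out (WT-labelled, 3 called), and 33 with weights, 31 without those arrays, 7 with the random block, 1 against the other label and 9 to 21 with 1 array left out (KO-labelled, 13 called). Median log2 changes moved for hnRNPs in WT-labelled cells at 20 nM (-0.52 and -0.36 at floors of 5 and 20, -0.37 with weights, -0.50 to -0.38 with 1 array left out), in KO-labelled cells at 20 nM (-0.24 with weights) and at 2 nM (-0.56 at a floor of 20 or a pseudocount of 16, -0.61 with the 60th percentile filter, -0.58 with weights or without arrays 4 and 10, -0.70 to -0.58 with 1 left out). They moved for SR proteins at 20 nM in KO-labelled cells (-0.12 with median centring, -0.18 to -0.14 with 1 left out), at 2 nM in WT-labelled cells (-0.29 with weights, -0.30 to -0.22) and in KO-labelled cells (-0.58 with weights, -0.59 without arrays 4 and 10, -0.59 to -0.48). For export factors they were -0.12 with the random block and -0.10 without arrays 4 and 10 in WT-labelled cells at 20 nM, -0.0965 to 0.0084 with 1 left out, and -0.18 in WT-labelled cells at 2 nM with probes averaged. The hnRNP median in WT-labelled cells at 2 nM ran from -0.44 to -0.33 with 1 array left out. HNRNPA1 in untreated series 1 turned to 0.33 (limma adjusted p = 0.0353) with probes averaged. Against the other label, dose differences turned for HNRNPD (0.19 in WT-labelled, -0.0793 in KO-labelled cells), SRSF10 (-0.0355) and HNRNPR (-0.0464). At a floor of 20 HNRNPU had no change. Causes of these shifts were not tested. Signal over background limits the dimmest genes, HNRNPU, HNRNPF and CLK2.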

Other observations

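Other RNA-binding genes outside the 43 also had large changes, chosen after their values were seen. TARDBP, a splicing repressor and RNA-stability factor, rose by 2.41 ± 0.20, 1.10 ± 0.20, 2.08 ± 0.19 and 1.90 ± 0.19 log2 in the 4 responses (20 nM WT- and KO-labelled, then 2 nM), and CELF1, a regulator of splicing and mRNA decay, rose by 1.18 to 1.48. ESRP1, an epithelial splicing regulator, fell by 0.87 to 1.63 log2, and TIA1, a stress granule protein that also acts on 5′ splice sites, by 0.84 to 1.11. SMG8, a subunit of the kinase complex of nonsense-mediated decay, rose by 1.65 to 2.69 log2. It alone of 14 exon junction and decay genes was called higher in all 4 responses, when 8.16% of all genes were. Within the spliceosome, SF3A1, SF3A2, SF3B2 and SF3B3 were called lower in all 4 responses, when 8.81% of all genes were. SF3B4, SF3B6, SNRNP70 and SNRPC were called higher in all 4, when 8.16% of all genes were. CLK4, the kinase nearest to CLK1, rose in KO-labelled cells at 2 nM by 0.82 ± 0.17 log2 and was not called in the other 3 responses.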
